A study of Mus musculus with 8 samples.

Results

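The genes described here are 8 members of the cholesterol synthesis and SREBP2 pathway, chosen by symbol among the 22065 named genes of the count table: the enzymes Hmgcs1, Idi1, Fdps, Fdft1, Sqle and Lss, the transcription factor gene Srebf2 and its feedback regulator Insig1. All 8 had a row in the table and passed the filter on low counts. RNA-seq was performed on haematopoietic stem cells (HSCs) sorted from mouse bone marrow as lineage-negative CD150+ CD48- EPCR+ cells. The study's definition of long-term HSCs also required c-Kit, the product of Kit. There were 100 cells in each library and 4 libraries in each of 2 groups. The Mitol KO mice carried Mitol Flox/Flox alleles and MX1-cre, whereas the controls were Mitol Flox/Flox littermates lacking the cre. Both groups were C57BL/6 mice aged 8 to 10 weeks that received Poly:IC, and cells were taken 1 week after the injections. The MX1 promoter responds to interferon and is active in many cell types, so the deletion was not restricted to HSCs, and the control mice shared the Poly:IC exposure but not the cre. The labels do not state whether each library came from its own mouse, so p-values measure the spread between these libraries.

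Cholesterol is built from acetyl-CoA through mevalonate, isoprenoid diphosphates, squalene and lanosterol. When sterols in the endoplasmic reticulum run low, SCAP escorts the SREBP2 precursor to the Golgi, where proteases release a fragment that enters the nucleus and raises transcription of the enzyme genes and of Srebf2 and Insig1 themselves. When sterols are plentiful, INSIG proteins hold SCAP and SREBP2 back. MITOL, the product of Marchf5, is a ubiquitin ligase of the outer mitochondrial membrane.

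Total counts on named genes ranged from 7214935 to 12398138 per library. Marchf5, the targeted gene, had 276, 232, 308 and 281 normalized read counts in Mitol KO libraries 1 to 4 and 299, 312, 333 and 262 in control libraries 1 to 4 (log2 fold change -0.15, SE 0.13, edgeR adjusted p = 0.498). The groups overlapped, and since a count over the whole gene includes exons outside a deletion it does not check the genotype, so libraries are named by their labels throughout. All 10 HSC markers examined were detected. The log2 fold change was below 0 for 8 of them and above 0 for 2. An edgeR adjusted p under 0.05 was reached by 3, Kit and Hlf included, all lower in Mitol KO. The summed level of the 10 was 25394 to 29459 normalized counts in Mitol KO and 37386 to 44486 in controls. The 10 proliferation genes were all higher in Mitol KO, with sums of 6079 to 12910 against 2992 to 5963. Of 12 erythroid markers 6 were tested, all 6 with a log2 fold change above 0 (sums of 1653 to 6456 against 881 to 1333). All 6 had an unadjusted p under 0.05, and 3 had an edgeR adjusted p under 0.05. Of 8 megakaryocyte markers 6 were tested, 3 above 0 and 3 below on the log2 scale (sums of 2863 to 5568 against 3466 to 5105). Of these, 1 had an edgeR adjusted p under 0.05, and it was lower. Sums cover every marker with a row, tested or not. Of all genes tested, edgeR called 8.43%, and 26.4% had an unadjusted p under 0.05. Few markers of other lineages had enough counts to be tested: 4 of 10 for neutrophils and monocytes, 1 of 8 for B cells, 2 of 7 for T cells and 1 of 7 for mast cells and basophils. None of those tested passed by edgeR, with 1 at an unadjusted p under 0.05 (Prtn3, a neutrophil protease gene), which DESeq2 called (adjusted p = 0.0150). The sums were 2200 to 2606 against 2015 to 2446 for neutrophils and monocytes, 136 to 150.3 against 145 to 204 for B cells, 189 to 259 against 172 to 200.5 for T cells and 11.4 to 27.5 against 11.3 to 28.7 for mast cells and basophils. The part of these cell-state differences in the pathway values was not tested.

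SREBP2 binds sterol regulatory elements, usually beside boxes for NF-Y or Sp1. Promoter windows of 250 bases before the start site were available from RefSeq (GRCm38.p6) for 5 of the 8 genes: Hmgcs1, Idi1, Lss, Srebf2 and Insig1. The windows of Srebf2 and Insig1 are shown because these are the regulators on which the results turn, and that of Hmgcs1 because it holds the same element as Srebf2. Capitals mark TCACNCCA (the core of a sterol regulatory element), CACGTG (an E-box) and CCAAT (the NF-Y box), searched on both strands.
Srebf2, chr15:82147019-82147268, + strand: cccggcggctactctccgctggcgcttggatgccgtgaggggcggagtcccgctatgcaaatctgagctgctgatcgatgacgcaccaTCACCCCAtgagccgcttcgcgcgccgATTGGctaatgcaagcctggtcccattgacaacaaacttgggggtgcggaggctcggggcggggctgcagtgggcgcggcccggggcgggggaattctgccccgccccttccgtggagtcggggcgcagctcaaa
Insig1, chr5:28071162-28071411, + strand: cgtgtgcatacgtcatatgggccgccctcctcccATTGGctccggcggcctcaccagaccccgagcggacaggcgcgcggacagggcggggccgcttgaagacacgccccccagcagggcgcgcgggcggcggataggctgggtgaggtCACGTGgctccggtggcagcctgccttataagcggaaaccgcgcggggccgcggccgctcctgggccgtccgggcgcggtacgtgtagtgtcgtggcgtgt
Hmgcs1, chr13:119690101-119690350, + strand: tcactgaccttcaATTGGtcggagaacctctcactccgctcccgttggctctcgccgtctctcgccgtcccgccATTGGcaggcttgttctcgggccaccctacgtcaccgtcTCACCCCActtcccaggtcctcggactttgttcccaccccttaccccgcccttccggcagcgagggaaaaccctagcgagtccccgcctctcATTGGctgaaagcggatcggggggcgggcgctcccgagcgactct

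TCACNCCA lay 162 bases before the start in Srebf2 and 137 bases before it in Hmgcs1, and was found in 3.67% of all 32817 windows of this length. CACGTG lay 101 bases before the start in Insig1 and was found in 6.02% of windows. All 5 windows held CCAAT, against 33.8% of all windows, and all 5 held the Sp1 box GGGCGG, which is not capitalised, against 32.7%. These letters were chosen after the windows had been seen, and a match is a description of sequence, not of binding.

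Srebf2 was by far the most abundant of the 8 transcripts. Per kilobase of merged exon, its level in controls was 499.98 ± 59.2 normalized counts (SD, n = 4), followed by Insig1 at 98.1 ± 38.6 and Sqle at 51.5 ± 17.2. Hmgcs1 (43.3 ± 8.19), Lss (28.8 ± 5.06) and Fdft1 (28.1 ± 6.63) came next, and Idi1 (8.04 ± 2.04) and Fdps (3.57 ± 1.94) were lowest on this scale. Only the steps from Srebf2 to Insig1 and from Fdft1 to Idi1 separated neighbouring genes without overlap of the control libraries. Exon lengths came from GENCODE vM39, which may not be the annotation used for counting. Near-identical copies elsewhere in the genome covered 81.9% of the Idi1 transcript, 68.7% of Insig1 and 54.4% of Fdps. Reads of these genes could be divided or dropped, so their places in this order are of counts and may understate expression.

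Srebf2, which encodes the SREBP2 precursor (chr15:82031382-82093201, + strand, GRCm39), had 3476, 3701, 3660 and 4208 normalized read counts in Mitol KO libraries 1 to 4. The controls had 5395, 4106, 4417 and 4765. Only Mitol KO library 4 reached into the control range, above control library 2. The log2 fold change was -0.33 (SE 0.099, 95% interval -0.55 to -0.12), which missed the threshold of 0.05 (edgeR adjusted p = 0.0584). The exact two-sided permutation test gave p = 0.0571, where 4 against 4 libraries allow no p below 0.0286. DESeq2 called the gene (adjusted p = 0.0353), as did edgeR without Mitol KO library 4 (adjusted p = 0.0257), so the call depended on the tool and on that library.

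Insig1, the sterol-responsive retention factor for SCAP (chr5:28276315-28283668, + strand), had 366, 280, 212 and 334 normalized read counts in Mitol KO and 607, 228, 443 and 639 in controls. Mitol KO values were below 3 of 4 controls, and control library 2 lay inside the Mitol KO range. The log2 fold change was -0.70 (SE 0.27, 95% interval -1.29 to -0.11; edgeR adjusted p = 0.124, exact two-sided permutation p = 0.143). Of the 8 fits that left out a library, only 1 passed, that without control library 2 (-0.93, edgeR adjusted p = 0.0381). The change was smallest without control library 4 (-0.53, edgeR adjusted p = 0.313). A processed pseudogene on chromosome 3, Gm37784, copied 68.7% of the Insig1 transcript at 97% identity or more, so reads could be divided or dropped there.

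**Figure D1:**
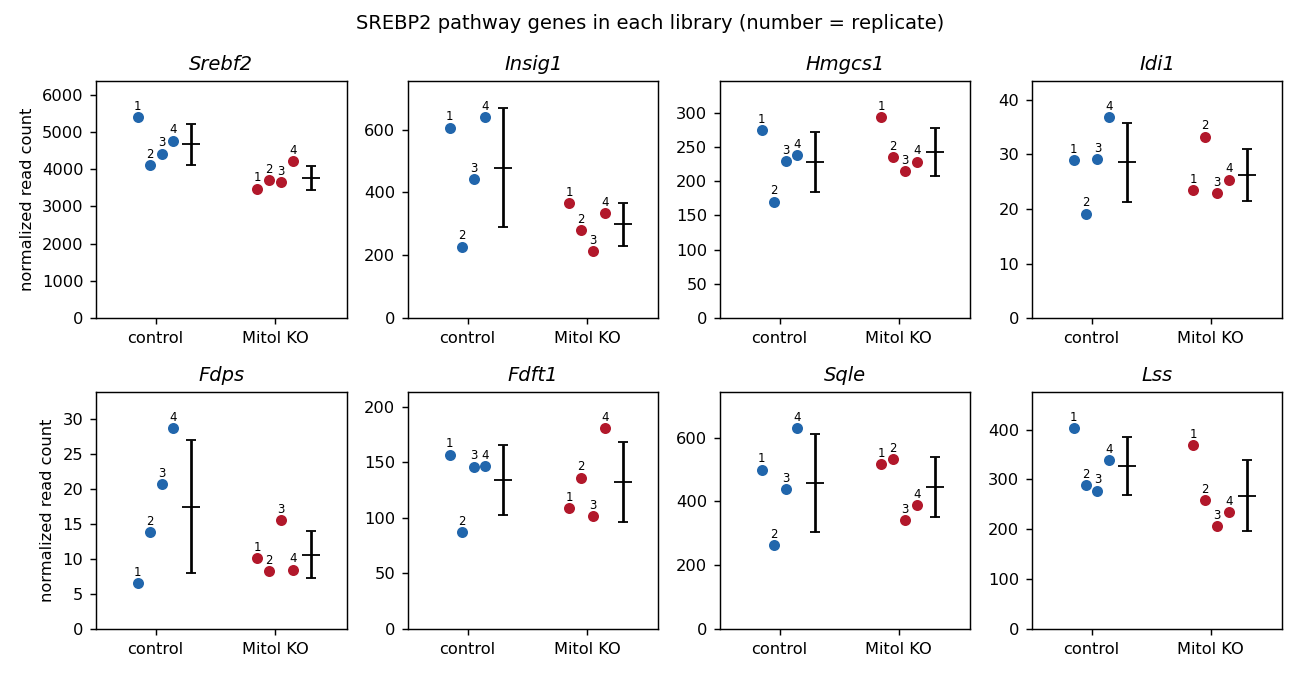
Normalized read counts (y axis, from 0 in each panel) of the 8 genes in control (blue) and Mitol KO (red) libraries, numbered by replicate; black bars give the mean ± SD, n = 4. Groups overlapped in all 8 panels, and control library 2 was the lowest control for 6 of the genes.

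Of the early enzymes, Hmgcs1 (chr13:120151915-120170470), which makes HMG-CoA, had 294, 235, 215 and 229 normalized counts in Mitol KO and 274, 170.2, 229.8 and 238 in controls. Its log2 fold change was 0.08 (SE 0.17, 95% interval -0.28 to 0.43; edgeR adjusted p = 0.814). Idi1 (chr13:8935537-8942487), the isopentenyl diphosphate isomerase, had 23.5, 33.3, 22.9 and 25.4 against 29.0, 19.2, 29.2 and 36.8. Both genes had fully intermixed groups. The log2 fold change of Idi1 was -0.15 (95% interval -0.84 to 0.54; edgeR adjusted p = 0.810), and 81.9% of its transcript was copied in the pseudogene Idi1-ps1. Fdps (chr3:89000888-89019213), which makes farnesyl diphosphate, had the fewest counts of the 8.

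Fdps had 10.2, 8.31, 15.6 and 8.46 normalized counts in Mitol KO and 6.59, 13.8, 20.7 and 28.7 in controls. With a control spread of 54.2% of the mean, its log2 fold change of -0.75 had the widest interval of the 8 genes (-1.79 to 0.29; edgeR adjusted p = 0.347). A 2-fold decrease was therefore not resolved at this depth, and 54.4% of the Fdps transcript was copied in the pseudogene Gm3571. None of these 3 pseudogenes was among the named rows used here.

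Of the squalene and lanosterol steps, Fdft1 (chr14:63382189-63417027), the squalene synthase, had 109, 136, 102 and 181 normalized counts in Mitol KO and 157, 87.3, 146.0 and 146.4 in controls. Sqle (chr15:59186869-59203043), the squalene epoxidase that limits flux late in the pathway, had 517, 533, 342 and 389 against 499.8, 263, 439 and 630.4. For both enzymes the lowest control was library 2, and the groups overlapped over most of their range. The log2 fold change was -0.05 for Fdft1 (95% interval -0.56 to 0.46; edgeR adjusted p = 0.925) and -0.06 for Sqle (95% interval -0.56 to 0.43; edgeR adjusted p = 0.895). Exons of Ctsb on the opposite strand overlapped 24.8% of the Fdft1 exon bases, and the strand setting of the counting is not given in the sources used here.

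Lss (chr10:76367298-76392976), which closes the ring to form lanosterol, had 369, 259, 207 and 234 normalized counts in Mitol KO and 404, 288, 278 and 339 in controls. Mitol KO library 1 was within the control range, and the other 3 were below it. The log2 fold change was -0.31 (SE 0.19, 95% interval -0.71 to 0.10; edgeR adjusted p = 0.318).

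Across the 8 genes, 0 passed the edgeR threshold, where 8.43% of all 16444 genes tested did. DESeq2 called 1 (Srebf2), against 14% of the 16488 genes to which it gave an adjusted p, and limma-voom called 0. At an unadjusted edgeR p under 0.05 there were 2 (Srebf2 and Insig1), against 26.4% of all genes. None of the 8 had groups that did not overlap, against 15.4% of all genes. The fold change was below 0 for 7 and above 0 for 1, with a median of -0.23 on the log2 scale, against -0.02 for all genes tested. Fdft1 (-0.05) and Sqle (-0.06) were near 0. Since 25 of 28 pairs of these genes correlated positively over the libraries, the signs are not independent. The 95% interval lay within a 2-fold change for 6 of the 8, the exceptions being Insig1 and Fdps.

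The other 15 sterol enzymes were tested in the same fit, and 0 passed the edgeR threshold, with 4 at an unadjusted p under 0.05. Over all genes these shares were 8.43% and 26.4%, and DESeq2 called 14%. Mvd, the mevalonate diphosphate decarboxylase, differed by -0.60 on the log2 scale (SE 0.27, edgeR adjusted p = 0.187), Cyp51 -0.31, Msmo1 -0.30 and Dhcr7 -0.26. None of these 4 passed the adjusted threshold. Only the interval of Mvd excluded 0 without adjustment (-1.19 to -0.004), and the groups overlapped for all 4. Lbr (0.39, adjusted p = 0.0629) and Ebp (0.51, adjusted p = 0.0690), named after their values were seen, had higher counts in every Mitol KO library than in any control and were called by DESeq2 (2 of 15) but not by edgeR. Sc5d, the lathosterol oxidase gene, also named after its values were seen, went the other way, with 305, 295, 222 and 294 normalized counts in Mitol KO and 359, 329.9, 311 and 371 in controls (-0.32, edgeR adjusted p = 0.149). These 3 of 15 were the enzymes whose groups did not overlap, against 15.4% of all genes. Lbr also encodes an inner nuclear membrane protein that binds lamin B. Over all 21 enzymes, 6 fold changes were above 0 and 15 below, with a median of -0.15 and 16 intervals within a 2-fold change.

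**Figure D2:**
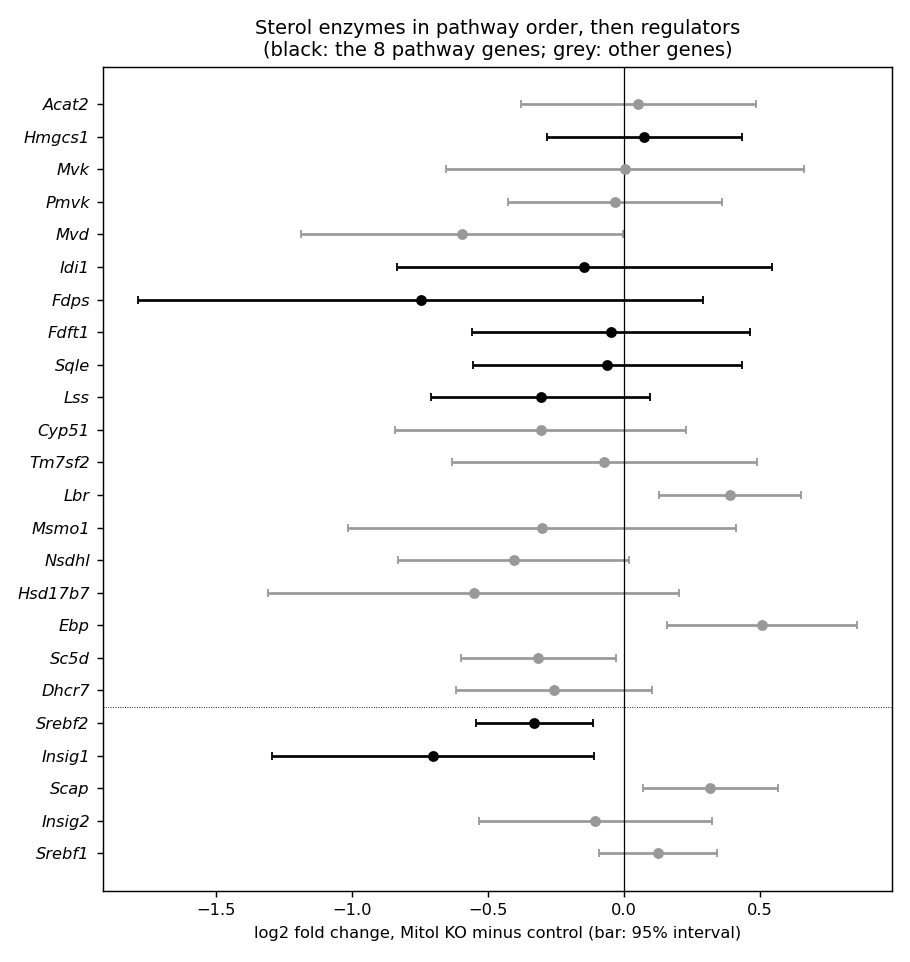
Log2 fold change, Mitol KO minus control (x axis), with its 95% interval for 19 of the 21 sterol enzymes in pathway order and, under the dotted line, regulators; black marks the 8 genes described and grey the others. Without adjustment for the number of genes tested, the intervals of Srebf2, Insig1, Mvd and Sc5d lie below 0, and those of Lbr, Ebp and Scap lie above 0.

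The paralogs allow a comparison within each library that scaling does not affect. Srebf1, the SREBP1 gene, had a log2 fold change of 0.12 (SE 0.10, edgeR adjusted p = 0.462). The ratio of Srebf2 to Srebf1 counts was 1.93, 2.00, 2.26 and 2.35 in Mitol KO and 2.84, 2.98, 2.79 and 3.10 in controls. Every Mitol KO ratio was thus below every control ratio (2.13 ± 0.20 against 2.93 ± 0.14, SD, n = 4; exact two-sided permutation p = 0.0286, the smallest the design allows). The ratio was examined after both genes' values had been seen, so its p-value is descriptive. Of all single genes tested, 15.4% did not overlap between the groups, and the share among ratios was not computed. Insig1 per Insig2 overlapped between the groups (3.21 ± 0.81 against 4.72 ± 1.77; exact permutation p = 0.200), and Insig2 itself had a log2 fold change of -0.11. Idi2 was below the filter, with at most 6.41 normalized counts in any library.

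**Figure D3:**
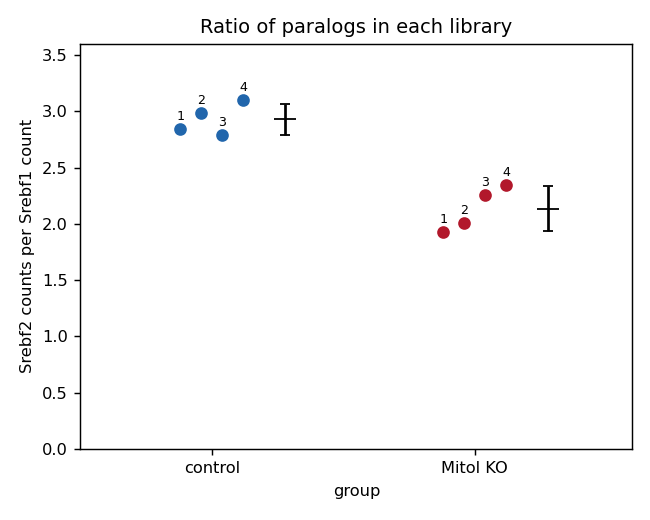
Srebf2 counts per Srebf1 count (y axis, from 0) in control (blue) and Mitol KO (red) libraries, numbered by replicate, with black bars for the mean ± SD, n = 4. The ratios of the groups do not overlap, the highest Mitol KO ratio being 2.35 and the lowest control ratio 2.79.

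Variation between libraries of the same group was shared by much of the pathway. Control library 2 was the lowest control for 6 of the 8 genes, and for 15 of 23 when the other 15 enzymes were included, against 20.5% of all genes tested. The mean standardized log2 CPM of the 8 genes was 0.74, -0.99, 0.33 and 1.05 in control libraries 1 to 4. It was -0.03, -0.15, -0.77 and -0.18 in Mitol KO libraries 1 to 4. The lowest value was therefore that of a control, and the controls spanned a wider range than Mitol KO. This profile was computed after the values had been seen. Among the 28 pairs of the 8 genes, 25 correlated positively over the 8 libraries (median r = 0.48), and 23 did so once group means were removed (median r = 0.49).

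**Figure D4:**
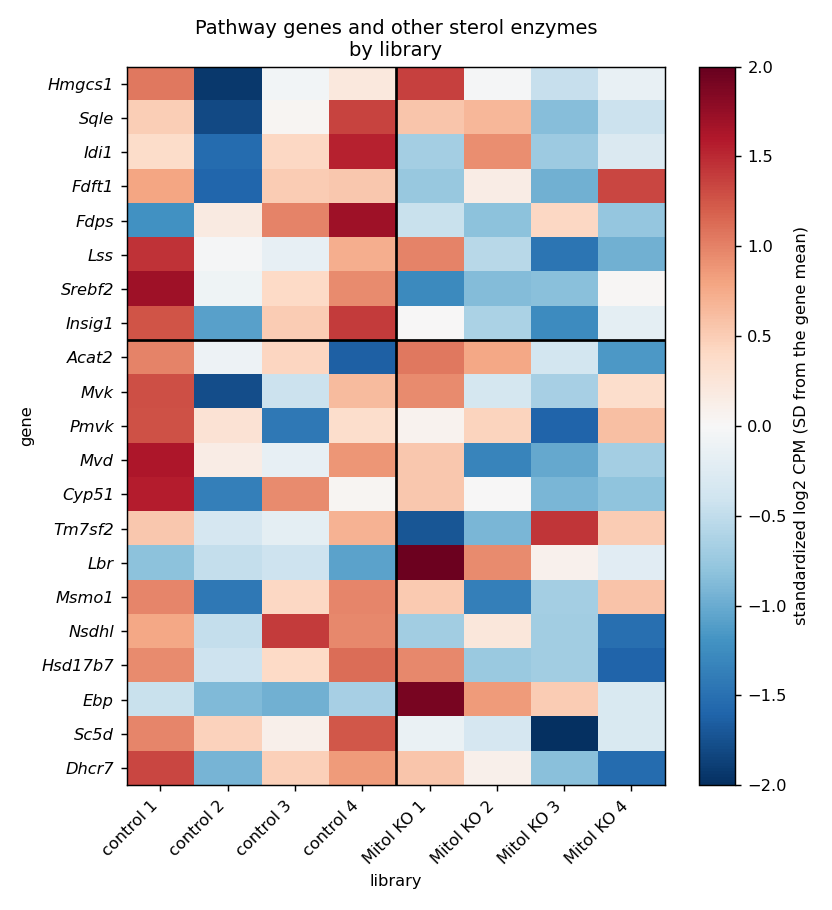
Standardized log2 CPM (colour, in SD from each gene's mean) of the 8 genes (above the line) and 13 other sterol enzymes (y axis) in each library (x axis). Control library 2 is blue for most of the enzymes, and Lbr and Ebp are blue in every control library.

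Among 12007 genes with a mean of at least 50 normalized counts, 4 of the 5 most like the mean profile of the 8 genes over the 8 libraries were Snapc4 (r = 0.98), Lonrf3 (0.98), Dgkh (0.94) and Fbxo44 (0.93). With group means removed, 4 of the 5 were Tfec (0.98), Snapc4 (0.97), Lonrf3 (0.97) and D16Ertd472e (0.95). Snapc4 and Lonrf3 were in both sets. These genes were picked as the highest of 12007 over 8 libraries, so a high r alone does not tie them to the pathway. Of the named enzymes, Msmo1 (r = 0.80, rank 75), Dhcr7 (0.79, rank 84) and Cyp51 (0.76, rank 129) came closest to the profile over the 8 libraries. Sc5d (0.67, rank 336) and Mvd (0.62, rank 532) came next, and Lbr (-0.33) and Ebp (-0.20) did not follow it.

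Of 21 genes for SREBP processing and sterol sensing, the log2 fold change was above 0 for 17 and below 0 for 4. By edgeR 1 was called, as higher: Fbxw7, a ubiquitin ligase subunit that targets nuclear SREBPs (0.34, edgeR adjusted p = 0.0496). Fbxw7 was called in only 1 of the 8 fits that left out a library. In this list 5 of 21 had an unadjusted p under 0.05 and 3 did not overlap, against 8.43% called, 26.4% and 15.4% of all genes. Scap, the escort gene, stood at 0.32 on the same scale (adjusted p = 0.104). The list's median was 0.12. Of 19 uptake and transport genes, edgeR called 1 higher (Vldlr, the VLDL receptor) and 1 lower, and the median was -0.07. At an unadjusted p under 0.05 there were 7 of 19, and 4 did not overlap. Vldlr had 333, 539, 807 and 1206 normalized counts in Mitol KO and 224, 179, 174 and 201 in controls (log2 fold change 1.87, SE 0.31, edgeR adjusted p = 0.00823), and was called in all 8 fits that left out a library. The erythroid factor gene Gata1 had 114, 131, 297 and 305 in the same Mitol KO libraries and 25.1, 31.9, 22.6 and 6.29 in controls, and its part in the Vldlr result was not tested.

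On the log2 scale Stard4 differed by -0.46 (adjusted p = 0.0817 by edgeR), Npc1 0.02 and Mylip -0.12. None of 11 esterification and efflux genes passed the edgeR test, including Abca1 (-0.04), Abcg1 (0.12) and Soat1 (0.26). In this list 3 had an unadjusted p under 0.05, 2 did not overlap and DESeq2 called 2. None of 15 isoprenoid genes passed (1 at an unadjusted p under 0.05, 2 not overlapping, 0 by DESeq2), and Ggps1 had -0.01. In the SREBP1 and fatty acid list of 14, edgeR called 1 higher and 1 lower, with 4 at an unadjusted p under 0.05 and 3 not overlapping. Over all genes, edgeR called 8.43% and DESeq2 14%, while 26.4% had an unadjusted p under 0.05 and 15.4% did not overlap. The gene called higher was Elovl5, a fatty acid elongase (0.49, edgeR adjusted p = 0.0261). Lpin1, a phosphatidate phosphatase, was called lower (-0.86, edgeR adjusted p = 0.0311). Each was called in 3 of the 8 fits that left out a library. Fasn (0.22), Acly (0.17), Scd2 (-0.01) and Scd1 (0.01) did not pass.

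**Figure D5:**
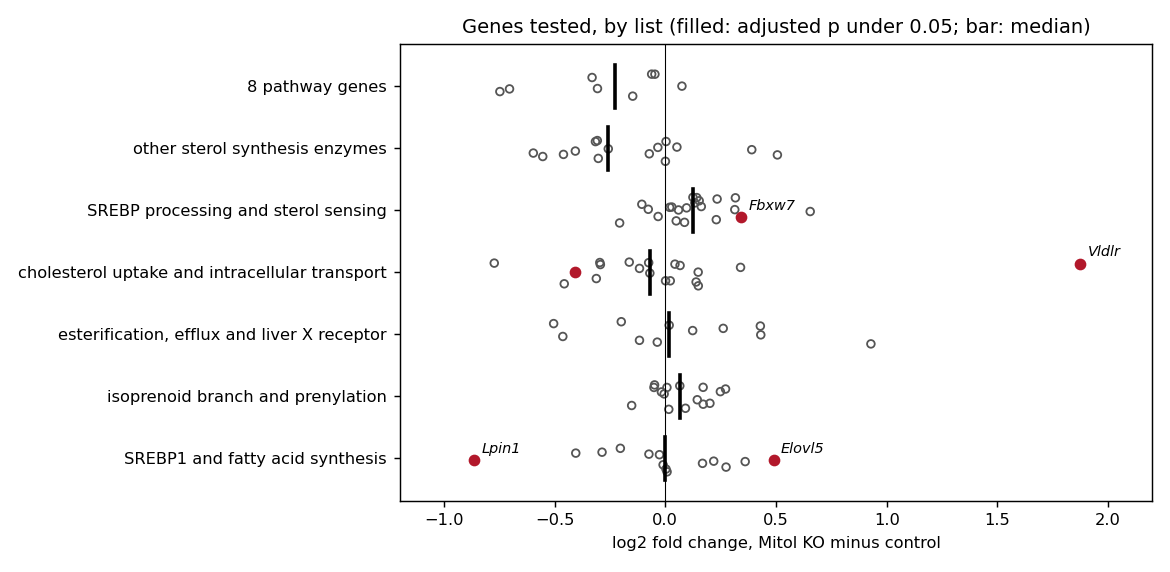
Log2 fold change, Mitol KO minus control (x axis), of each gene tested in the 8 pathway genes and 6 related lists (y axis); filled red points have an edgeR adjusted p under 0.05 and black bars mark medians. Vldlr stands farthest to the right at 1.87, and no filled point is among the 8 genes or the other sterol enzymes.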

How the data were processed

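RNA-seq libraries of 100 sorted HSCs were sequenced by the authors as single-end reads, aligned with STAR to mm39 and summarised to genes with Subread, per the labels and the study's methods; the gene annotation and strand setting are not given in the sources used here. The deposited values were raw counts per gene in 8 libraries. The table had 23094 rows, and 1029 rows without a gene symbol (0.335% to 0.467% of counts) were left out. Symbols altered by R were restored where they matched GENCODE vM39 (21526 of 22065).

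Counts were fitted with edgeR 4.0.16 (TMM, filterByExpr, quasi-likelihood test, condition only), and p-values were adjusted by Benjamini-Hochberg over the 16444 genes tested, with a threshold of 0.05. SEs were the fold change divided by the square root of F. Normalized read counts were counts divided by DESeq2 size factors, and log2 CPM used a prior count of 2. Alternatives were DESeq2 1.42.0, limma-voom (limma 3.58.1), DESeq2 size factors in edgeR, no expression filter, a replicate block and leaving out each library. Fits were checked on simulated data. There, a larger share of DESeq2 calls was false than its threshold of 0.05 allows, and edgeR missed most genes given small differences. DESeq2 calls that edgeR did not share are therefore the less certain ones. Single genes were compared by exact permutation over 70 arrangements. Transcript copies of at least 75 bases and 97% identity were found with blastn 2.17.0 in GRCm39, and promoter windows were from RefSeq, GRCm38.p6.

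The 8 genes and the lists were chosen with earlier results of these data known. Genes named were these 8, a fixed set from each list, list genes past the threshold (at most 4 per list and direction) and the 5 genes most like the mean profile. The copy search, ratio, profile of libraries and motif letters were added after values were seen. Some genes that this rule names are not reported here.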

Additional observations from a re-analysis of the deposited data

Results flagged for a closer look

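In control libraries, Fdft1 had 87.3 normalized counts in replicate 2, far below the other 3 at 146.0 to 157. Scap had 1006.7 normalized counts in control replicate 4, below the other 3 at 1338 to 1360. Each was set apart because the gap to its nearest neighbour took up most of the group's range. Of 72 groups examined (36 genes), 2 stood apart in this way, and chance alone sets apart about 1 in 20 groups.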

How the results depend on the processing

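The 4 libraries of 100 cells in each group limit what could be resolved, and a gene that missed the threshold is not shown to be unchanged. DESeq2 called 2315 genes in all, 1 of the 8 pathway genes (Srebf2) and 11 list genes, against 1386, 0 and 5 by edgeR. Leaving out 1 library gave 359 to 2501 genes in all, 0 to 1 of the 8 pathway genes (Srebf2 without Mitol KO replicate 4, Insig1 without control replicate 2) and 1 to 12 list genes. The extremes over all genes were without control replicate 2 (359) and without Mitol KO replicate 4 (2501), and the cause was not tested. DESeq2 size factors, no expression filter and limma-voom called 0 of the 8. The log2 fold changes of Srebf2, Insig1, Lss and Fdps kept their sign in all 13 alternatives, those of Idi1 in 12, Hmgcs1 in 11, Sqle in 10 and Fdft1 in 9. Correlations of deviations from the group mean ran from -0.07 to 0.08 for same-numbered libraries and from -0.13 to 0.10 over all pairs. Correlations this small cannot decide whether the replicate numbers pair the libraries. With the replicate number as a block, 1652 genes in all, 0 of the 8 and 7 list genes passed.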

Other observations

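Mir33, which lies within Srebf2, had 0 to 5 reads per library, too few to compare.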
